A study of Mus musculus with 24 samples.

Results

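The hepatocyte transcripts described here encode 10 receptors for hormones and growth factors: Avpr1a, Gcgr, Adra1a, Adra1b, Lepr, Adipor1, Adipor2, Nr3c1, Lifr and Egfr. They were taken by gene name from the 55421 genes of the count and FPKM tables. All 10 were among the 13847 genes that passed the filter on low counts. The set was chosen by their log2 fold changes between these groups, at least for Avpr1a, which stood among the largest falls of counts in HFD+veh against ND+veh. The values that led to the other 9 are not stated, so the differences of all 10 members between groups are given as a description, without p-values. "Called" means here that the adjusted p of edgeR's quasi-likelihood test, fitted over all 13847 genes, was under 0.05.

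The animals were male C57BL/6J mice, all of them old. ND+veh (8 animals) received normal diet with vehicle from 4 months of age until the end. HFD+veh (7 animals) received vehicle from 4 months of age and a diet with 60% of its calories from fat for 9 weeks from 18 months. HFD+eRapa (9 animals) received the same high-fat diet and, from 4 months onwards, rapamycin at 42 ppm encapsulated in eudragit, an inhibitor of mTORC1. No group combined rapamycin with the normal diet, and rapamycin began before the diet, so the comparison of HFD+eRapa with ND+veh holds both differences at once. Hepatocytes were isolated by perfusion and density gradient, polyA RNA was sequenced, and each library stands for one numbered animal of its group.

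Hepatocytes receive hormonal signals through several classes of receptor. Avpr1a, the vasopressin receptor of hepatocytes, and the adrenergic receptors Adra1a and Adra1b couple to Gq, which activates phospholipase C and raises cytosolic calcium, a signal for glycogen breakdown. Gcgr, the glucagon receptor, couples to Gs and raises cAMP, which drives glucose output in fasting. Lepr binds the adipocyte hormone leptin, and Adipor1 and Adipor2 bind adiponectin. Nr3c1, the glucocorticoid receptor, is a nuclear receptor that acts as a transcription factor. Lifr pairs with gp130 to signal through Jak and Stat proteins, and Egfr is a receptor tyrosine kinase with a known role in liver regeneration.

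Avpr1a and Lifr were the members called both in HFD+veh against ND+veh and in HFD+eRapa against HFD+veh, and their promoter sequences are shown for that reason. RefSeq start sites (GRCm38.p6) were matched for 8 of the 10 members, with none for Adra1a and Nr3c1. The windows below are the 250 bases before each start on the plus strand, 5′ to 3′, and capitals mark matches to the motifs searched. The Avpr1a window is chr10:122448249-122448498. Lifr has 2 starts, with windows chr15:7129322-7129571 and chr15:7140292-7140541.
Avpr1a: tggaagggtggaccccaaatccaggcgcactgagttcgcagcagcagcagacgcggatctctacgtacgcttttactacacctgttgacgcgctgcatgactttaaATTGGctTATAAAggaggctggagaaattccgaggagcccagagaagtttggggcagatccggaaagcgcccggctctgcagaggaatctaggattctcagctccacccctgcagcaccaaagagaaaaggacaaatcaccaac
Lifr start 1: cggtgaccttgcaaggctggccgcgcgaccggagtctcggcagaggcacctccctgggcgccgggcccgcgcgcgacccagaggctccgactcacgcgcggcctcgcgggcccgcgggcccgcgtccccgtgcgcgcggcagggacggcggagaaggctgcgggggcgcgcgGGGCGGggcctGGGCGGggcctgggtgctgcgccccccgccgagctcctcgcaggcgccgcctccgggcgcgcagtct
Lifr start 2: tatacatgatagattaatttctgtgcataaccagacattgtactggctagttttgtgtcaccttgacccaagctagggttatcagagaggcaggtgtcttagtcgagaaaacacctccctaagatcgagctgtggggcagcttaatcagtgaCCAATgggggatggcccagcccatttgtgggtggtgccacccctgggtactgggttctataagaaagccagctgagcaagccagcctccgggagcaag
The letters searched, on both strands, were TATAAA (the TATA box), CCAAT (the CCAAT box), GGGCGG (the GC box), AGAACA (a partial glucocorticoid receptor site), CACGTG (the E box) and TTCNNNGAA (bound by Stat proteins). The Avpr1a window held TATAAA at -137 to -132 relative to the start and CCAAT on the opposite strand at -144 to -140, which reads ATTGG above, and the matches did not overlap. The first Lifr window was 82.4% G and C and held GGGCGG at -78 to -73 and at -67 to -62. The second Lifr window was 50.8% G and C and held CCAAT at -98 to -94. No match to the glucocorticoid receptor, E box or Stat letters was found in these windows. Of 32851 RefSeq windows of this length, 12.4% held the TATA box letters, 33.8% those of the CCAAT box and 32.7% those of the GC box. The glucocorticoid receptor letters were in 16.1%, the E box in 6.02% and the Stat letters in 7.02%. These matches describe letters in the reference and not binding.

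Libraries held between 17739252 and 25945134 counts assigned to genes. The 11 hepatocyte markers measured were high in every library, with sums between 61269 and 179168 CPM (counts scaled to a common library size by TMM). RNA of other liver cells was also present, and it moved with the groups. The sum of 11 macrophage markers had a median of 294 CPM in ND+veh, 2944 in HFD+veh and 235 in HFD+eRapa, and ranged from 196 to 5857 CPM within HFD+veh. The sum of 10 endothelial markers had medians of 282, 536 and 173 CPM, and that of 10 stellate cell markers 135, 170 and 48.3 CPM. Medians over 8 cholangiocyte markers were 18.1, 116 and 34.8 CPM. The sum of 10 lymphocyte markers reached at most 53.9 CPM and that of 8 neutrophil markers at most 46.0 CPM in a library, with the neutrophil gene Ly6g at 0 in all ND+veh and HFD+eRapa libraries. Macrophage markers were called higher for 4 of 11 in HFD+veh against ND+veh (0 of 11 without HFD+veh replicate 6) and lower for 9 of 11 in HFD+eRapa against HFD+veh (6 of 11 without it). All 10 endothelial and all 10 stellate cell markers were called lower in HFD+eRapa against HFD+veh (4 and 10 without that library). In bulk RNA, fewer cells of a type and less RNA per cell cannot be told apart.

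Read across the set, 4 of the 10 receptors were called lower and 0 higher in HFD+veh against ND+veh (Avpr1a, Adra1b, Lepr and Lifr), where 25.9% of all tested genes were called and 9.86% were called lower. The estimate was below 0 for 9 of 10 members, with a median log2 fold change of -0.56 beside 0.05 over all genes. In HFD+eRapa against HFD+veh, 5 of 10 were called higher and 0 lower (Avpr1a, Egfr, Lifr, Adipor2 and Gcgr), where 32.0% of all genes were called and 10.9% were called higher. The estimate was above 0 for 8 of 10, and the median log2 fold change was 0.58 beside -0.04 over all genes. In HFD+eRapa against ND+veh, 2 of 10 were called lower (Avpr1a and Lepr) beside 13.5% of all genes called and 6.54% called lower, with a median of 0.09 beside -0.03. In CPM, groups without overlap between animals were seen for 1, 2 and 0 members in the 3 comparisons, beside 2.44%, 2.59% and 3.37% of all genes. The 3 comparisons share animals, and nothing is read from these counts, since the members were chosen with these contrasts known.

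**Figure D1:**
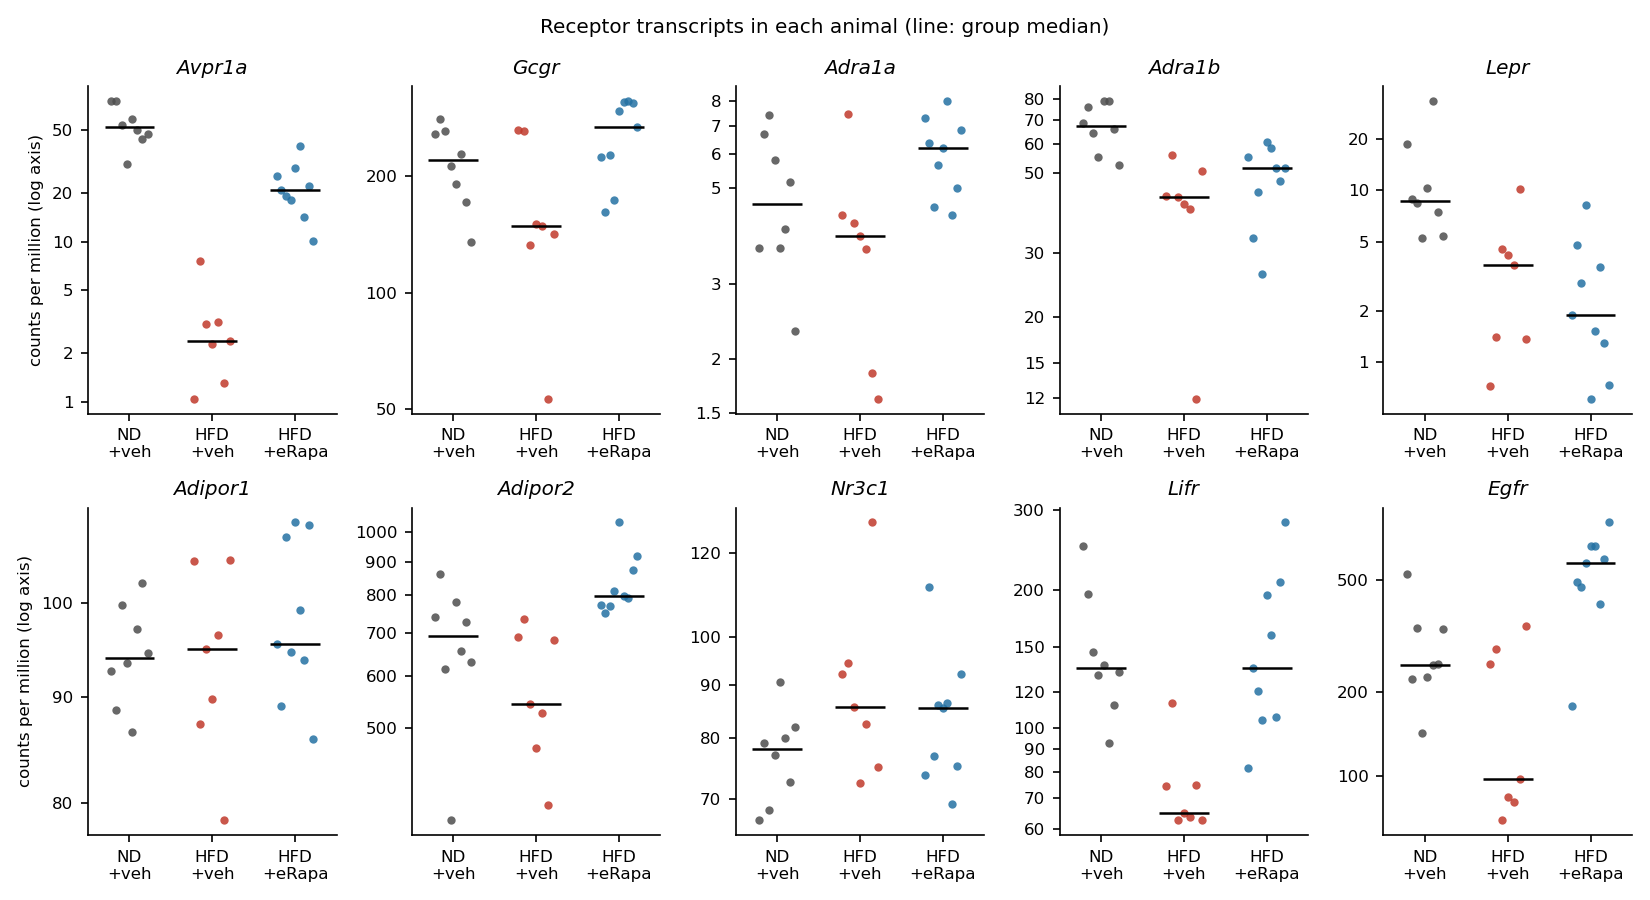
CPM of each receptor (log axis) in each animal of ND+veh, HFD+veh and HFD+eRapa, one point per animal, with the group median as a line. Avpr1a in HFD+veh lies between 1.04 and 7.58 CPM, below every animal of the other groups, while Adipor1 lies between 78.5 and 109 CPM in all of them.

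Avpr1a (chr10, 122448499 to 122453452, mm10/GRCm38) had the widest differences of the set in the comparisons of HFD+veh with ND+veh and with HFD+eRapa. Its transcript ranged from 30.5 to 75.8 CPM in ND+veh with a median of 51.7 CPM, from 1.04 to 7.58 CPM in HFD+veh with a median of 2.40 CPM, and from 10.1 to 39.4 CPM in HFD+eRapa with a median of 21.1 CPM. Every HFD+veh animal lay below every animal of both other groups, and the HFD+eRapa and ND+veh animals overlapped between 30.5 and 39.4 CPM. Non-overlap of this kind, in either direction, was seen for 2.44% of all genes in HFD+veh against ND+veh and for 2.59% in HFD+eRapa against HFD+veh. The difference between HFD+veh and ND+veh was -4.19 on the log2 scale (SE 0.367), an 18.2-fold lower level. HFD+eRapa was 7.39-fold above HFD+veh (log2 fold change 2.89, SE 0.344). It stayed below ND+veh by a log2 fold change of -1.30 (SE 0.294). These calls were kept in each of the 24 fits that left out one library, with log2 fold changes of -4.62 to -4.04 and 2.74 to 3.32 in the first 2 comparisons. The transcript is low in absolute counts on the high-fat diet alone, at 20 to 172 reads in the HFD+veh libraries against 833 to 1989 in ND+veh. The overlapping antisense gene Gm48877 held at most 30 reads in any library.

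The 5 genes whose log2 CPM followed that of Avpr1a most closely over the 24 libraries were Rmdn2 (r = 0.928), Ang (r = 0.924), Npr2 (r = 0.919), Gulo (r = 0.910) and Acot1 (r = 0.906). All of these correlations include the differences between groups and share the same libraries. After removal of the group means r was 0.743 for Rmdn2, 0.491 for Ang, 0.703 for Npr2, 0.771 for Gulo and 0.570 for Acot1. Npr2, a receptor for a natriuretic peptide, had means of 65.6 ± 14.6 CPM in ND+veh (SD, n = 8), 14.7 ± 13.6 in HFD+veh (n = 7) and 39.3 ± 14.4 in HFD+eRapa (n = 9). Gulo, the last enzyme of vitamin C synthesis, is one of 13 genes listed as typical of hepatocytes around the central vein. Of those 13 genes, 9 were called lower and 0 higher in HFD+veh against ND+veh, where 9.86% of all genes were called lower. In HFD+eRapa against HFD+veh 11 were called higher and 0 lower, beside 10.9% of all genes called higher. In HFD+eRapa against ND+veh 0 were called by edgeR, by DESeq2 or by limma voom (1 at an unadjusted p under 0.05). Their summed level was 5895 to 11593 CPM in ND+veh, 1252 to 7335 CPM in HFD+veh and 7225 to 11415 CPM in HFD+eRapa. Of 10 periportal genes tested, 8 were called higher in the first comparison, 7 lower in the second and 3 higher in the third, where 13.5% of all genes were called. Whether these genes and Avpr1a share a cause was not tested.

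The adrenergic receptors of the same Gq class differed less. Adra1b (chr11, 43774606 to 43901210), the alpha-adrenergic receptor with the higher level of the pair in these cells, ranged from 52.4 to 78.9 CPM in ND+veh (median 67.3), from 11.9 to 55.8 CPM in HFD+veh (median 42.9) and from 26.4 to 60.8 CPM in HFD+eRapa (median 51.4). The HFD+veh animals lay at the low end and overlapped ND+veh in a narrow band, with HFD+veh replicate 6 far below the others at 11.9 CPM. Adra1b fell by 0.73 on the log2 scale in HFD+veh against ND+veh (SE 0.217) and was called in all 24 fits without one library, at -0.83 to -0.60. It was not called when the immune marker score was a covariate, at -0.48. The log2 fold change was 0.23 (SE 0.210) in HFD+eRapa against HFD+veh and -0.50 (SE 0.202) in HFD+eRapa against ND+veh, neither called. The last of these was called without HFD+veh replicate 6, at -0.52, and with only the compared groups in the fit, at -0.50. It was also called with the immune marker score (-0.57) or the endothelial, stellate cell and cholangiocyte score (-0.71) as a covariate.

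Adra1a (chr14, 66635251 to 66771168), the related receptor, was a low transcript. It ranged from 2.32 to 7.40 CPM in ND+veh, from 1.62 to 7.45 CPM in HFD+veh and from 4.34 to 8.0 CPM in HFD+eRapa, with medians of 4.61, 3.87 and 6.20 CPM. All 3 groups overlapped. The log2 fold changes were -0.34 (SE 0.270), 0.65 (SE 0.265) and 0.31 (SE 0.253) for HFD+veh against ND+veh, HFD+eRapa against HFD+veh and HFD+eRapa against ND+veh, none of them called. The second was called without ND+veh replicate 8 or without HFD+veh replicate 2, at 0.65 and 0.90, and also by limma voom (0.77) and with the replicate number as a block (0.82).

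Downstream of these receptors, 24 genes of Gq and calcium signalling were tested. In HFD+veh against ND+veh 6 were called higher and 2 lower (33.3%, beside 25.9% of all genes; 5 called without HFD+veh replicate 6, and 4 to 13 over the 24 fits without one library). In HFD+eRapa against HFD+veh 2 were called higher and 10 lower (50.0%, beside 32.0%). In HFD+eRapa against ND+veh 0 were called by edgeR, DESeq2 or limma voom, with 5 at an unadjusted p under 0.05. Rgs2, which shortens Gq signals, rose from 2.78 ± 2.26 CPM in ND+veh to 34.6 ± 46.4 CPM in HFD+veh (log2 fold change 3.63, SE 0.871, adjusted p = 0.0059). It fell by 2.97 on the log2 scale (SE 0.810, adjusted p = 0.00798) to 4.39 ± 4.44 CPM in HFD+eRapa, a call that was lost without HFD+veh replicate 6, where the log2 fold change was -1.97. Prkcd, a protein kinase C, rose by 1.25 (SE 0.345, adjusted p = 0.013) and was lower by -2.11 (SE 0.340, adjusted p = 0.000187) in the same comparisons. Arrb2, an arrestin that takes receptors off the cell surface, had log2 fold changes of 1.29 (SE 0.375, adjusted p = 0.0172) and -1.78 (SE 0.366, adjusted p = 0.00141). The first call of Arrb2 was lost without HFD+veh replicate 3 or 4, at 1.01 in both. Arrb1, the other arrestin, was lower with eRapa than in HFD+veh by -1.69 (SE 0.457, adjusted p = 0.00758). Plcb1, a phospholipase C that Gq activates, fell by 0.57 in HFD+veh against ND+veh (SE 0.188, adjusted p = 0.0302), a call lost without ND+veh replicate 5 or 6 or HFD+veh replicate 3, 4 or 6 at -0.55 to -0.48. Prkcd, Arrb2 and Rgs2 are also expressed by immune cells, and the macrophage sums above moved in the same directions. Their part in these values was not tested.

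Gcgr (chr11, 120530699 to 120538986) was the second most abundant of the set per transcript length. It ranged from 135 to 280 CPM in ND+veh (median 219), from 53.3 to 262 CPM in HFD+veh (median 149) and from 162 to 312 CPM in HFD+eRapa (median 268). The groups overlapped widely, and HFD+veh replicate 6 was again the lowest library, at 53.3 CPM. The log2 fold change was -0.40 (SE 0.241) in HFD+veh against ND+veh and 0.22 (SE 0.225) in HFD+eRapa against ND+veh, neither called. Between HFD+eRapa and HFD+veh it was 0.62 (SE 0.236), a 1.54-fold difference that was called but kept its call in 9 of the 24 fits without one library. Without HFD+veh replicate 6 it was 0.48 and not called. The call was also lost in 9 of the 12 other alternatives. With a marker score as a covariate the log2 fold change was 0.14 (immune cells) and 0.11 (endothelial, stellate cells and cholangiocytes). In the rest it was 0.59 to 0.72. These were no filter on low expression, at least 10 counts in every library, only the compared groups, the replicate block and the FPKM fits. The antisense gene Gm11789 overlaps Gcgr and held 239 to 588 reads per library. The strand setting of the counting was not stated, so reads of the pair cannot be told apart with certainty.

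Of 24 genes tested around glucagon and cAMP, 1 was called higher and 1 lower in HFD+veh against ND+veh (8.33%, beside 25.9%; 1 called without HFD+veh replicate 6), 2 higher and 3 lower in HFD+eRapa against HFD+veh (20.8%, beside 32.0%), and 1 higher and 2 lower in HFD+eRapa against ND+veh (12.5%, beside 13.5%). Prkacb, a catalytic subunit of protein kinase A, rose by 0.36 on the high-fat diet (SE 0.116, adjusted p = 0.0265), and its call was lost without ND+veh replicate 1 or 4 or HFD+veh replicate 3 or 6, with the lowest value of 0.17 without the last. Adcy6, an adenylyl cyclase, was higher with eRapa than in HFD+veh by 0.85 (SE 0.246, adjusted p = 0.0113) and than in ND+veh by 0.75 (SE 0.236, adjusted p = 0.0345), the second call being kept in 15 of 24 fits without one library. Ppargc1a, a coactivator of gluconeogenic genes, was lower with eRapa than in either other group, by -0.89 (SE 0.226, adjusted p = 0.00525) and -0.78 (SE 0.219, adjusted p = 0.0176). The second of these was not called without ND+veh replicate 6, at -0.66. Creb1, a transcription factor that cAMP activates, fell by 0.61 in HFD+eRapa against HFD+veh (SE 0.204, adjusted p = 0.0239), but by 0.23 and without a call when HFD+veh replicate 6 was left out. Ramp2, which binds glucagon-family and related receptors at the cell surface, was lower by -1.10 in the same comparison (SE 0.316, adjusted p = 0.0105). All 10 endothelial markers were also called lower there, and the part of other cells in the Ramp2 value was not tested.

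Among the adipokine receptors, Lepr (chr4, 101717404 to 101815352) was low and varied most between animals. It ranged from 5.29 to 33.2 CPM in ND+veh (median 8.68), from 0.730 to 10.2 CPM in HFD+veh (median 3.70) and from 0.615 to 8.22 CPM in HFD+eRapa (median 1.89). Of the animals on the high-fat diet, 6 of 7 in HFD+veh and 8 of 9 in HFD+eRapa lay below every ND+veh animal. The exceptions were HFD+veh replicate 6 at 10.2 CPM, above the ND+veh median, and HFD+eRapa replicate 4 at 8.22 CPM, just below it. The coefficient of variation was 77.4%, 86.4% and 86.1% in the 3 groups. Lepr fell by 1.70 on the log2 scale in HFD+veh against ND+veh (SE 0.577). It fell by 2.10 in HFD+eRapa against ND+veh (SE 0.538), while the difference between HFD+eRapa and HFD+veh was -0.40 (SE 0.548) and was not called. The call against ND+veh was kept in all 24 fits without one library for HFD+eRapa, at -2.49 to -1.70. For HFD+veh it was kept in 19 of 24 and lost without ND+veh replicate 1 or 6 or HFD+veh replicate 4, 5 or 7, at -1.77 to -1.29. It was also lost with no filter on low expression (-1.77) and on log2(FPKM + 1) of every gene above 0 (-0.87). Among the HFD+veh animals, Lepr was highest at 10.2 CPM in replicate 6, whose macrophage sum of 5857 CPM was the highest of all libraries. HFD+veh replicates 3, 4 and 5, at sums of 2944 to 3734 CPM, held 3.70 to 4.59 CPM. Replicates 1, 2 and 7, at 196 to 1067 CPM, held 0.730 to 1.41 CPM. In HFD+eRapa, Lepr was 0.615 to 1.52 CPM in replicates 5, 6, 8 and 9, at sums of 19.3 to 65.7 CPM. It was 1.89 to 8.22 CPM in the other animals of that group, at sums of 235 to 1217 CPM. In ND+veh, replicate 8 had the highest macrophage sum, 1545 CPM, with Lepr at 5.45 CPM. ND+veh replicate 1 had the lowest sum of that group, 51.9 CPM, with Lepr at 18.7 CPM. The highest Lepr value, 33.2 CPM in ND+veh replicate 6, stood beside a sum of 867 CPM. Their relation was not tested. When the immune marker score was a covariate the log2 fold change in HFD+veh against ND+veh was -3.00. In HFD+eRapa against HFD+veh it was 0.72 with that score and 0.74 with the endothelial, stellate cell and cholangiocyte score. It was 0.07 there with the replicate number as a block and 0.14 without HFD+veh replicate 6, and was called in none of these fits.

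Adipor1 (chr1, 134415378 to 134433351) showed the least spread. It ranged from 86.6 to 102 CPM in ND+veh (median 94.0), from 78.5 to 105 CPM in HFD+veh (median 94.9) and from 85.9 to 109 CPM in HFD+eRapa (median 95.5). The log2 fold changes were -0.01 (SE 0.0759), 0.07 (SE 0.0739) and 0.06 (SE 0.0713) in the 3 comparisons, none called, and the coefficient of variation within groups was 5.57% to 10.1%.

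Adipor2 (chr6, 119353150 to 119417704), the other adiponectin receptor, was the most abundant of the 10. It ranged from 360 to 861 CPM in ND+veh (median 691), from 380 to 735 CPM in HFD+veh (median 543) and from 749 to 1034 CPM in HFD+eRapa (median 797). In CPM, every HFD+eRapa animal was above every HFD+veh animal, with 735 and 749 CPM as the nearest values, and ND+veh overlapped both groups. Such non-overlap, in either direction, was seen for 2.59% of all genes. In FPKM the 2 groups overlapped, at 90.8 to 176 in HFD+veh and 139 to 217 in HFD+eRapa. Adipor2 was 1.45-fold higher with eRapa than in HFD+veh (log2 fold change 0.54, SE 0.150), called in all 24 fits without one library. With a covariate for the immune marker score the log2 fold change was 0.31, and with one for the endothelial, stellate cell and cholangiocyte score 0.24, neither called. The log2 fold changes of -0.23 (SE 0.153) in HFD+veh and 0.31 (SE 0.144) in HFD+eRapa against ND+veh were not called.

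Around leptin and adiponectin, 25 genes were tested. In HFD+veh against ND+veh 5 were called higher and 3 lower (32.0%, beside 25.9%; 3 called without HFD+veh replicate 6, and 3 to 12 over the 24 fits), in HFD+eRapa against HFD+veh 5 higher and 6 lower (44.0%, beside 32.0%), and in HFD+eRapa against ND+veh 4 higher and 1 lower (20.0%, beside 13.5%). Irs2, an adaptor of insulin and leptin signalling, fell from 37.8 ± 14.9 CPM in ND+veh to 8.94 ± 3.89 CPM in HFD+veh (log2 fold change -2.08, SE 0.323, adjusted p = 0.000179). It was higher in HFD+eRapa, at 20.2 ± 10.02 CPM (1.18, SE 0.308, adjusted p = 0.00617). Against ND+veh that level was lower by -0.90 (SE 0.286, adjusted p = 0.037), called in 13 of 24 fits without one library. Paqr9, a membrane protein of the same family as the adiponectin receptors, had means of 446 ± 171 CPM in ND+veh, 257 ± 101 in HFD+veh and 786 ± 149 in HFD+eRapa. Its log2 fold changes were -0.80 (SE 0.254, adjusted p = 0.0253), 1.61 (SE 0.256, adjusted p = 0.00015) and 0.82 (SE 0.239, adjusted p = 0.0229). The first was lost without ND+veh replicate 1 or 2 or HFD+veh replicate 4 or 6, at -0.74 to -0.69, and the third without ND+veh replicate 6, at 0.77. Paqr7, another member of that family, was higher with eRapa than in HFD+veh by 1.31 (SE 0.211, adjusted p = 0.000177) and than in ND+veh by 1.14 (SE 0.200, adjusted p = 0.000393). Leprot, which is encoded next to Lepr and limits leptin receptor traffic to the cell surface, rose by 1.01 on the high-fat diet (SE 0.289, adjusted p = 0.0155), but by 0.62 and without a call when HFD+veh replicate 6 was left out. It was lower in HFD+eRapa by -1.22 (SE 0.280, adjusted p = 0.00285). Prkaa1, a catalytic subunit of AMP-activated kinase, rose by 0.84 in HFD+veh against ND+veh (SE 0.217, adjusted p = 0.00892). Ppara, the fatty acid receptor of the nucleus, was higher with eRapa than in ND+veh by 0.71 (SE 0.224, adjusted p = 0.0363), a call kept in 14 of 24 fits without one library.

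Nr3c1 (chr18, 39410545 to 39519421) was nearly level. It ranged from 66.9 to 90.6 CPM in ND+veh (median 78.1), from 72.5 to 128 CPM in HFD+veh (median 85.6) and from 69.3 to 112 CPM in HFD+eRapa (median 85.4). The 3 groups overlapped, and the single value above 112 CPM was that of HFD+veh replicate 6. The log2 fold changes were 0.22 (SE 0.114), -0.10 (SE 0.111) and 0.13 (SE 0.108) for HFD+veh against ND+veh, HFD+eRapa against HFD+veh and HFD+eRapa against ND+veh, none called.

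Genes around the glucocorticoid receptor changed in both directions. Of 26 tested, 4 were called higher and 4 lower in HFD+veh against ND+veh (30.8%, beside 25.9%; 5 called without HFD+veh replicate 6), 4 higher and 7 lower in HFD+eRapa against HFD+veh (42.3%, beside 32.0%), and 0 higher and 2 lower in HFD+eRapa against ND+veh (7.69%, beside 13.5%). Tdo2, a tryptophan-degrading enzyme that glucocorticoids induce in liver, rose from 1073 ± 152 CPM in ND+veh to 2083 ± 423 CPM in HFD+veh (log2 fold change 0.96, SE 0.159, adjusted p = 0.000341). Fkbp5, a co-chaperone of the receptor and one of its targets, rose by 0.77 (SE 0.248, adjusted p = 0.0271), a call lost without ND+veh replicate 2, 4 or 5 or HFD+veh replicate 6 at 0.68 to 0.71. The metallothionein Mt1 rose by 1.58 (SE 0.454, adjusted p = 0.0159) and was lower with eRapa than in HFD+veh by -1.49 (SE 0.437, adjusted p = 0.0123). Mt2, the other metallothionein, had log2 fold changes of 1.57 (SE 0.522, adjusted p = 0.0305) and -1.37 (SE 0.501, adjusted p = 0.0389), called in 17 and 12 of the 24 fits without one library. Sgk1, a kinase that glucocorticoids induce, was lower with eRapa than in HFD+veh by -1.63 (SE 0.373, adjusted p = 0.00285) and than in ND+veh by -1.30 (SE 0.362, adjusted p = 0.0174). Serpina6, the plasma carrier of corticosterone, was lower in HFD+eRapa by -0.93 (SE 0.219, adjusted p = 0.00337) and -0.85 (SE 0.213, adjusted p = 0.00836) in the same comparisons.

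Lifr (chr15, 7090614 to 7197489), whose promoter windows are shown above, ranged from 92.3 to 250 CPM in ND+veh (median 135), from 62.7 to 113 CPM in HFD+veh (median 65.1) and from 81.4 to 282 CPM in HFD+eRapa (median 135). Of the 7 HFD+veh animals, 6 lay between 62.7 and 74.8 CPM, below every animal of the other groups, and replicate 2 at 113 CPM overlapped them. Lifr fell by 1.02 on the log2 scale in HFD+veh against ND+veh (SE 0.239), was 2.09-fold higher with eRapa than in HFD+veh (log2 fold change 1.07, SE 0.235), and differed between HFD+eRapa and ND+veh by 0.05 (SE 0.221), which was not called. The 2 calls were kept in all 24 fits without one library. Neither was called when the immune marker score was a covariate, at -0.55 and 0.51, and the second was not called with the endothelial, stellate cell and cholangiocyte score, at 0.44. On the FPKM scale, the log2 ratio of group means was -1.45 for HFD+veh and -0.37 for HFD+eRapa, each against ND+veh. The log2 fold change of HFD+eRapa against ND+veh changed sign in 5 of the 24 fits without one library. It also did so in 6 of the 12 other alternatives, with -0.33 as the lowest.

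Of 17 genes tested in the family of LIF receptors and gp130, 4 were called higher and 3 lower in HFD+veh against ND+veh (41.2%, beside 25.9%; 4 called without HFD+veh replicate 6), 3 higher and 5 lower in HFD+eRapa against HFD+veh (47.1%, beside 32.0%), and 1 higher and 1 lower in HFD+eRapa against ND+veh (11.8%, beside 13.5%). Socs2 and Cish, feedback inhibitors of Jak and Stat signalling, fell in HFD+veh against ND+veh by 2.32 (SE 0.436, adjusted p = 0.000989) and 1.86 (SE 0.536, adjusted p = 0.0162). Both were higher with eRapa than in HFD+veh, Socs2 by 1.86 (SE 0.422, adjusted p = 0.00275) and Cish by 1.59 (SE 0.523, adjusted p = 0.0236), the latter not called without HFD+veh replicate 4 or 6, at 1.52 and 1.501. Il11ra1, the interleukin 11 receptor, fell by 0.78 in HFD+veh (SE 0.176, adjusted p = 0.00399) and by 0.82 in HFD+eRapa (SE 0.164, adjusted p = 0.00134) against ND+veh. Osmr, the receptor of oncostatin M, rose from 2.71 ± 1.53 CPM in ND+veh to 9.23 ± 8.23 CPM in HFD+veh (log2 fold change 1.77, SE 0.506, adjusted p = 0.0157) and was lower in HFD+eRapa by -1.63 (SE 0.486, adjusted p = 0.0133). Neither call of Osmr was kept without HFD+veh replicate 6, at 1.19 and -1.06. Pias1, an inhibitor of Stat proteins, was lower by -0.71 in HFD+eRapa against HFD+veh (SE 0.176, adjusted p = 0.00472). Stat3, which Lifr and gp130 activate, was higher with eRapa than in ND+veh by 0.49 (SE 0.131, adjusted p = 0.0128). The ligands Lif, Osm, Il6 and Il11 were too low to be tested, and the highest value among them was 1.73 CPM, for Lif.

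Egfr (chr11, 16752203 to 16918158) ranged from 142 to 525 CPM in ND+veh (median 249), from 70.0 to 342 CPM in HFD+veh (median 98.0) and from 177 to 799 CPM in HFD+eRapa (median 575). The HFD+veh animals were spread in 2 bands: replicates 1, 2 and 7 at 250, 283 and 342 CPM lay within the range of ND+veh, and replicates 3, 4, 5 and 6 at 70.0, 84.7, 81.3 and 98.0 CPM lay below every animal of the other groups. All HFD+eRapa animals but replicate 1 (177 CPM) lay above every HFD+veh animal. Egfr was 3.11-fold higher with eRapa than in HFD+veh (log2 fold change 1.64, SE 0.356), and this was called in all 24 fits without one library, at 1.499 to 1.89. The log2 fold changes against ND+veh were -0.72 (SE 0.352) for HFD+veh and 0.91 (SE 0.332) for HFD+eRapa, neither called. The first was called without HFD+veh replicate 7, at -0.98, and in each of the fits on log2 FPKM, at -1.06 to -1.02. The second was called by DESeq2 (0.91), with only the compared groups in the fit (0.92) and when the immune marker score was a covariate (0.81), and without ND+veh replicate 1 or HFD+eRapa replicate 1, at 1.08 and 1.03. Replicates 3, 4, 5 and 6 of HFD+veh had endothelial marker sums of 745, 853, 536 and 904 CPM and macrophage sums of 3734, 2944, 3231 and 5857 CPM, and replicates 1, 2 and 7 had 138, 172 and 327 CPM and 196, 198 and 1067 CPM. In the other groups, ND+veh replicate 8 had an endothelial sum of 540 CPM with Egfr at 333 CPM. HFD+eRapa replicate 4 had a sum of 407 CPM with Egfr at 575 CPM. Going the other way, HFD+eRapa replicates 5, 6, 8 and 9 had the lowest sums of that group, 74.2 to 103 CPM. They held its highest Egfr values, 594 to 799 CPM. ND+veh replicate 1 had the lowest sum of its group, 94.2 CPM, and its highest Egfr, 525 CPM. The lowest Egfr of ND+veh, 142 CPM in replicate 4, stood beside a sum of 353 CPM. The relation of Egfr to these sums was not tested. With the endothelial, stellate cell and cholangiocyte score as a covariate, the log2 fold change in HFD+eRapa against HFD+veh was 1.01 and was not called.

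**Figure D2:**
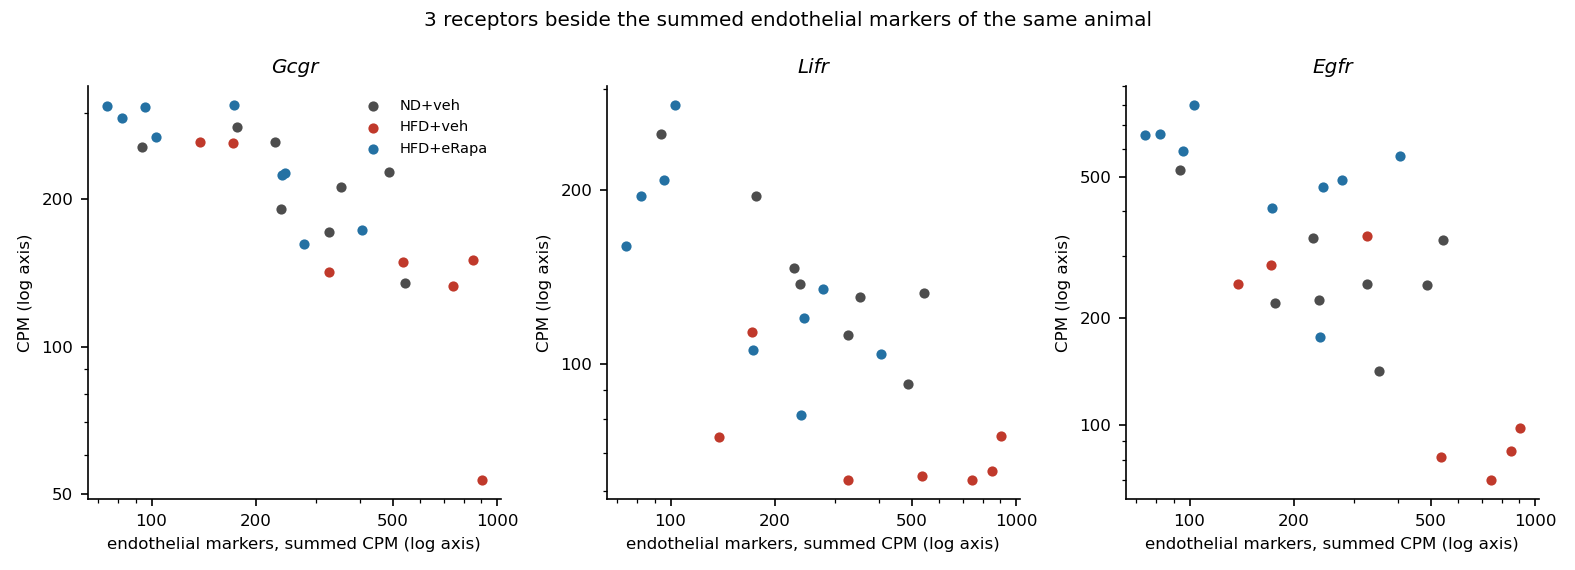
CPM of Gcgr, Lifr and Egfr (vertical, log axis) against the summed CPM of 10 endothelial markers of the same library (horizontal, log axis), one point per animal, coloured by group. The 4 HFD+veh libraries with marker sums of 536 to 904 CPM hold the 4 lowest Egfr values, 70.0 to 98.0 CPM. ND+veh replicate 8, with a sum of 540 CPM, holds an Egfr value of 333 CPM. Lifr in HFD+veh stays between 62.7 and 113 CPM over the whole range of marker sums. In HFD+eRapa, replicates 5, 6, 8 and 9 have sums of 74.2 to 103 CPM. They hold Lifr values of 160 to 282 CPM and Egfr values of 594 to 799 CPM. The other libraries of that group, with sums of 173 to 407 CPM, hold 81.4 to 135 CPM of Lifr and 177 to 575 CPM of Egfr. ND+veh replicate 1, with a sum of 94.2 CPM, holds the highest Lifr value of its group, 250 CPM.

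Among 26 genes of the EGF family and its signalling, 8 were called higher and 4 lower in HFD+veh against ND+veh (46.2%, beside 25.9%; 6 called without HFD+veh replicate 6), 3 higher and 11 lower in HFD+eRapa against HFD+veh (53.8%, beside 32.0%), and 2 higher and 1 lower in HFD+eRapa against ND+veh (11.5%, beside 13.5%). Erbb4, a related receptor that binds neuregulins, was low but rose from 0.747 ± 0.443 CPM in ND+veh to 2.95 ± 0.356 CPM in HFD+veh (log2 fold change 1.98, SE 0.267, adjusted p = 3.55e-05) and stood at 3.79 ± 0.819 CPM in HFD+eRapa (2.34 above ND+veh, SE 0.260, adjusted p = 2.34e-06). Its ligand Nrg4 rose as well, from 3.30 ± 0.949 CPM to 9.74 ± 2.98 CPM (1.56, SE 0.207, adjusted p = 2.92e-05), and was 6.21 ± 1.59 CPM in HFD+eRapa (0.91 above ND+veh, SE 0.196, adjusted p = 0.00266). The proteases Adam10 and Adam17, which release Egfr ligands from the cell surface, rose in HFD+veh against ND+veh by 1.40 (SE 0.325, adjusted p = 0.0049) and 1.18 (SE 0.311, adjusted p = 0.0104). The call of Adam17 was lost without HFD+veh replicate 6, at 0.62. Comparing HFD+eRapa with HFD+veh, Adam10 was lower by -1.30 (SE 0.313, adjusted p = 0.00398) and Adam17 by -1.27 (SE 0.301, adjusted p = 0.00356). Btc, an Egfr ligand, was lower by -1.20 in that comparison (SE 0.363, adjusted p = 0.0142), and so was Cbl, a ubiquitin ligase that degrades the receptor, by -1.39 (SE 0.333, adjusted p = 0.00395).

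**Figure D3:**
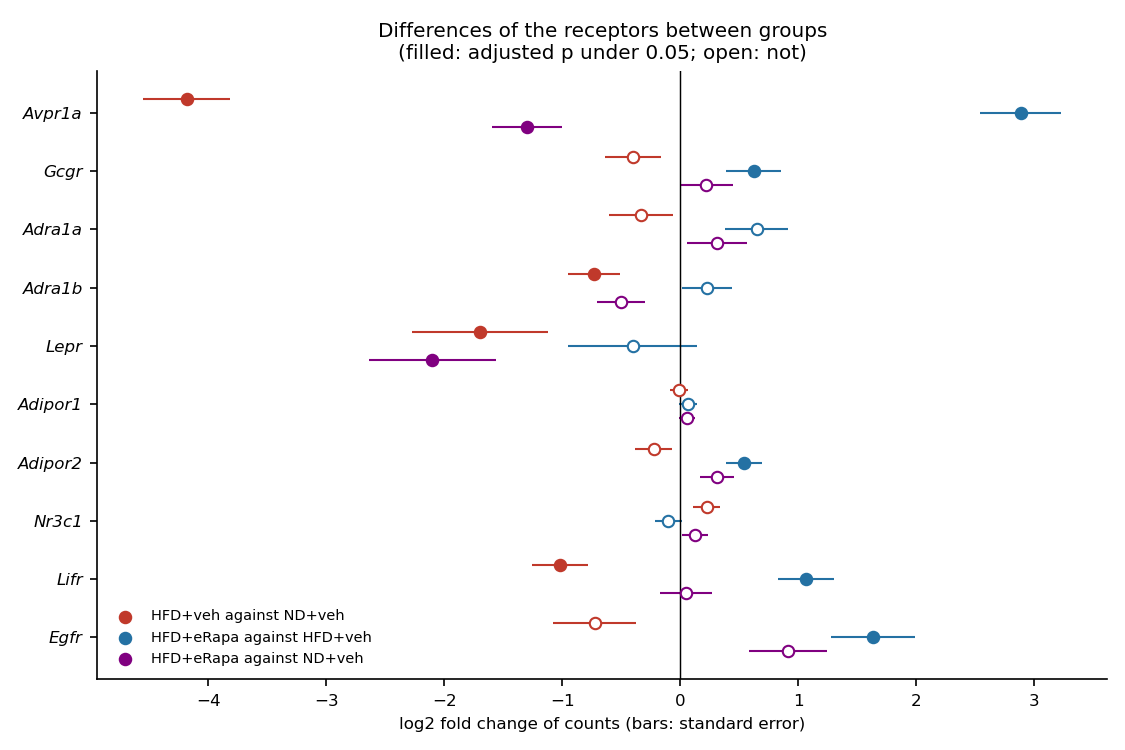
Log2 fold change of counts (horizontal) with its standard error for each receptor in the 3 comparisons, filled where the adjusted p was under 0.05. Avpr1a spans -4.19 to 2.89, Lepr lies at -1.70 and -2.10 against ND+veh, and all 3 points of Adipor1 lie between -0.01 and 0.07.

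Levels can be compared between genes per transcript length, and the deposited FPKM values were used for this. In ND+veh the order of mean FPKM was Adipor2 (154 ± 26.6), Gcgr (104 ± 25.02), Egfr (47.6 ± 14.3), Lifr (39.0 ± 16.1), Adra1b (31.1 ± 4.48), Adipor1 (29.1 ± 3.57), Avpr1a (19.7 ± 5.03), Nr3c1 (14.4 ± 2.28), Lepr (2.42 ± 1.81) and Adra1a (1.26 ± 0.535), as mean ± SD over 8 animals. Neighbours in this order overlapped between animals, with the exception of Nr3c1 and Lepr. In HFD+veh Adipor2 (131 ± 26.0) and Gcgr (76.9 ± 31.9) stayed the highest, and Avpr1a stood at 1.09 ± 0.825 FPKM beside Adra1a at 1.03 ± 0.555 and Lepr at 0.797 ± 0.656 (n = 7). The gap in the order lay there between Lifr at 14.3 ± 5.56 and Avpr1a, and all other neighbours overlapped. In HFD+eRapa Avpr1a was at 7.46 ± 2.90 FPKM, again with a gap to the next gene, Adra1a at 1.49 ± 0.368, and Egfr at 75.7 ± 24.6 followed Gcgr at 114 ± 28.9 (n = 9).

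**Figure D4:**
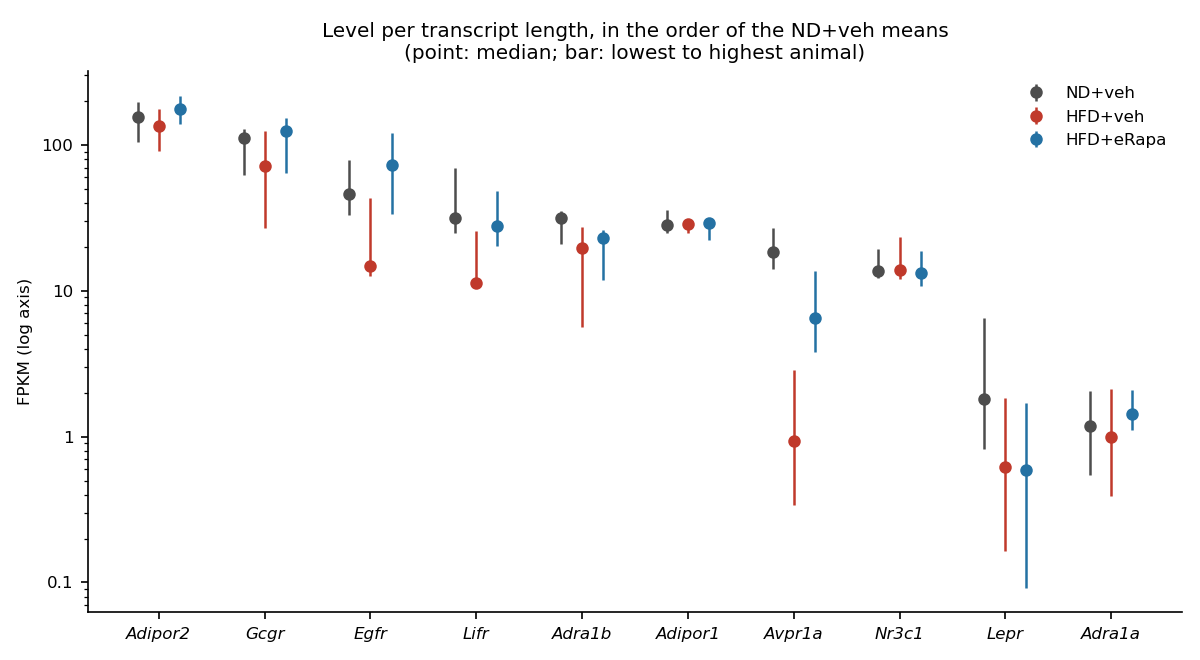
FPKM (log axis) of the 10 receptors in the order of their ND+veh means, as the median (point) and the range from the lowest to the highest animal (bar) in each group. Avpr1a has medians of 18.5, 0.928 and 6.52 FPKM in ND+veh, HFD+veh and HFD+eRapa, and the bar of HFD+veh does not reach the others.

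Within groups, some members varied together and others in opposite directions. Over the 45 pairs, Pearson's r of log2 CPM after removal of group means ranged from -0.57 to 0.82 with a median of 0.17 (n = 24 libraries, which share depth and cell makeup). The highest was that of Gcgr and Adra1b, at 0.82, with a Spearman's rho of 0.53 and an r of 0.70 without the 2 libraries farthest from the median of Gcgr. Others above 0.5 were Adra1b with Adipor2 (0.60), Adipor2 with Egfr (0.59), Gcgr with Adra1a (0.58), Lifr with Egfr (0.57) and Gcgr with Adipor2 (0.53). Without the 2 farthest libraries, these were 0.59, 0.56, 0.48, 0.47 and 0.32. There were 5 pairs below -0.5, each with Nr3c1 or Lepr as a partner, led by Adipor1 with Nr3c1 (-0.57) and Adra1b with Nr3c1 (-0.56). HFD+veh replicate 6 held the lowest Gcgr, Adra1b and Adipor1 and the highest Nr3c1 value of all libraries. Without the 2 farthest libraries the r of these 5 pairs was weaker, at -0.37 to -0.24, with -0.24 for Adra1b with Nr3c1. Their Spearman's rho over all libraries was -0.44 to -0.12.

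Ligands and further receptors of the same families were mostly silent. Of 19 such genes, 5 were tested. Avp and Avpr1b had no reads in any of the 24 libraries, and Gcg, Lep and Adipoq reached at most 0.158 CPM. In HFD+veh against ND+veh 0 of 5 were called by edgeR and by limma voom, 1 by DESeq2, and 1 had an unadjusted p under 0.05. In HFD+eRapa 3 of 5 were called lower against HFD+veh (60.0%, beside 32.0%) and 2 of 5 against ND+veh (40.0%, beside 13.5%). Vipr1, a receptor of vasoactive intestinal peptide, was lower with eRapa than in HFD+veh by -1.28 (SE 0.329, adjusted p = 0.00554) and than in ND+veh by -1.71 (SE 0.322, adjusted p = 0.000748).

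Other hormone and growth factor receptors of the liver were counted beside the 10. Of 52 tested, 14 were called higher and 6 lower in HFD+veh against ND+veh (38.5%, beside 25.9%; 10 called without HFD+veh replicate 6), 5 higher and 21 lower in HFD+eRapa against HFD+veh (50.0%, beside 32.0%), and 2 higher and 8 lower in HFD+eRapa against ND+veh (19.2%, beside 13.5%). Their median log2 fold changes were 0.19, -0.31 and -0.20, beside -0.56, 0.58 and 0.09 over the 10 members, whose choice used these contrasts. Npr2 fell by 2.16 in HFD+veh against ND+veh (SE 0.375, adjusted p = 0.000513). Il10rb, Ednrb and Acvrl1, receptors for interleukins, endothelin and ligands of the bone morphogenetic protein family, rose by 1.98 (SE 0.559, adjusted p = 0.0148), 1.90 (SE 0.577, adjusted p = 0.0204) and 1.86 (SE 0.577, adjusted p = 0.0224). None of these 3 calls was kept without HFD+veh replicate 6, at 1.43, 1.501 and 1.56, and that of Acvrl1 was also lost without HFD+veh replicate 3 or 4, at 1.65 and 1.61. The same 3 genes were lower with eRapa than in HFD+veh, by -2.45 (SE 0.547, adjusted p = 0.00248), -2.86 (SE 0.575, adjusted p = 0.00118) and -2.25 (SE 0.563, adjusted p = 0.005). In that comparison 10 of 10 endothelial, 10 of 10 stellate cell and 9 of 11 macrophage markers were also called lower, and their part in these differences was not tested. When the immune marker score was a covariate, the log2 fold changes of the 3 genes were -0.40, -1.04 and -0.18, none of them called. Fgfr2, a fibroblast growth factor receptor, was lower by -2.05 in that comparison (SE 0.164, adjusted p = 3.07e-08). Against ND+veh, HFD+eRapa had higher Esr1, the estrogen receptor (1.33, SE 0.236, adjusted p = 0.000445), and lower Il22ra1 (-1.97, SE 0.265, adjusted p = 2.28e-05), Pth1r (-1.67, SE 0.359, adjusted p = 0.00261) and Npr1 (-1.07, SE 0.294, adjusted p = 0.0154).

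**Figure D5:**
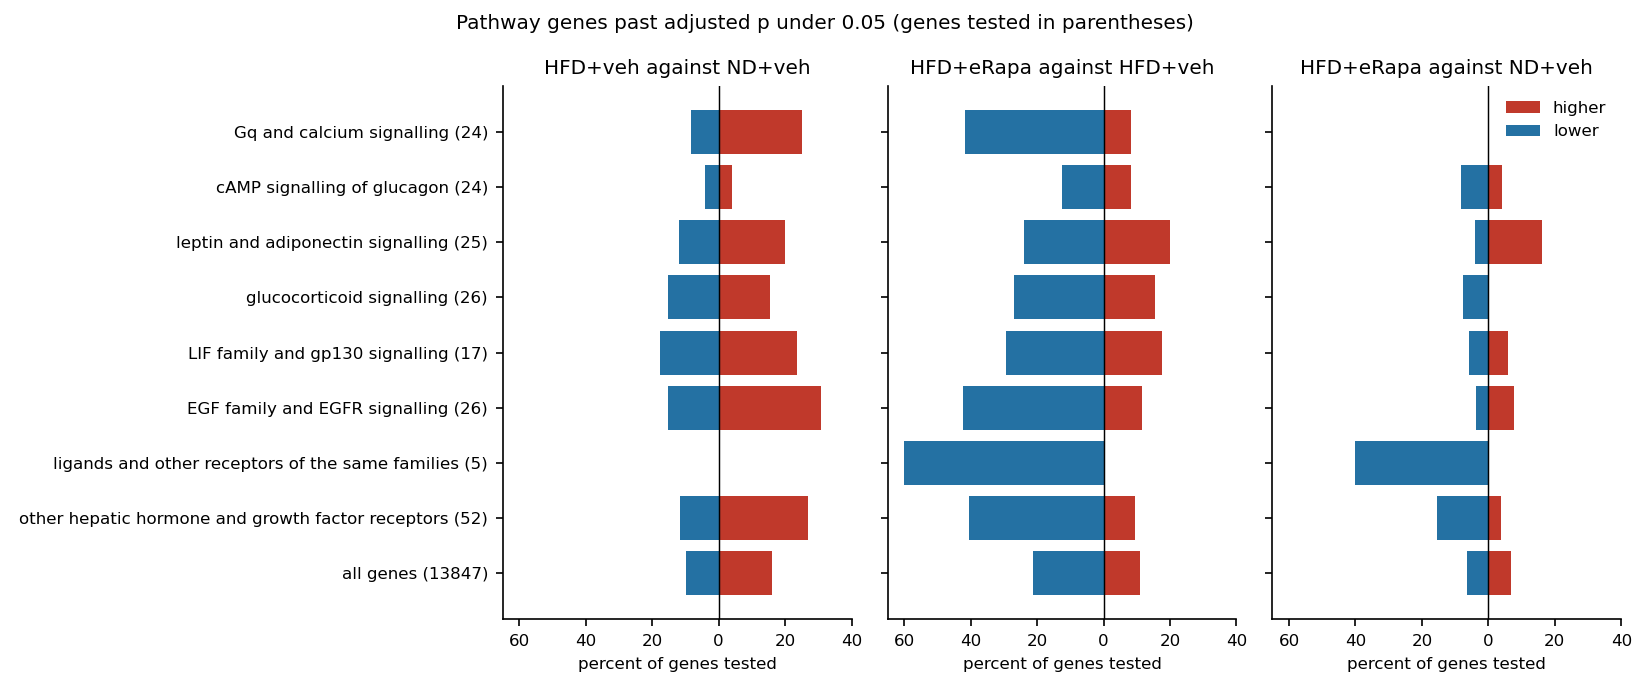
Percent of the tested genes of each pathway list called higher (right, red) and lower (left, blue) in the 3 comparisons, with the share over all 13847 genes in the bar for all genes and the number tested in parentheses. In HFD+eRapa against HFD+veh the lower side is longer than the higher side in every list and over all genes (10.9% higher, 21.1% lower). Without HFD+veh replicate 6, 3 lists had as many calls higher as lower. These were the cAMP (2 and 2), leptin and adiponectin (4 and 4) and glucocorticoid lists (5 and 5).

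With each gene counted once, 196 of 221 pathway genes were tested. In HFD+veh against ND+veh 42 were called higher and 22 lower (32.7%, beside 25.9%), and without HFD+veh replicate 6 the count was 17 higher and 17 lower. For HFD+eRapa against HFD+veh 22 were called higher and 66 lower (44.9%, beside 32.0%), and in HFD+eRapa against ND+veh 9 higher and 17 lower (13.3%, beside 13.5%).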

How the data were processed

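RNA sequencing of hepatocytes from 24 old mice was analysed, 8 ND+veh, 7 HFD+veh and 9 HFD+eRapa. Groups came from the labels. The deposited count table holds whole-number read counts per gene, which the authors made by 2-pass STAR alignment to mm10 (Gencode M23) and HTSeq 0.11.2 after SAMtools 1.1.0, as the study's methods and processing notes name them. The strand setting of the counting is not given in the sources used here. The deposited FPKM table was made by the authors with Cufflinks. Coordinates are those of Gencode M21 on the same build, and promoter sequences those of RefSeq (GRCm38.p6).

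Counts were fitted in edgeR 4.0.16 (R 4.3.3) with filterByExpr on group, TMM library sizes and the robust quasi-likelihood test over all 24 libraries without covariates. P-values were adjusted by Benjamini-Hochberg over 13847 genes, and adjusted p under 0.05 was called. CPM used TMM library sizes, and log2 CPM for correlations a prior count of 2. Standard errors were derived from the estimate and its F statistic. The members and the gene lists were chosen with earlier results of these data known. From each pathway list and comparison the called genes with a mean log2 CPM of at least 1 were ranked by absolute log2 fold change, and at most 4 were named. Genes like Avpr1a were the 5 with the highest Pearson r among genes with a mean log2 CPM of at least 3 and a symbol. Marker scores were means of standardised log2 CPM over a marker list. Libraries held 17739252 to 25945134 counts, so Avpr1a rests on 20 to 172 reads per library in HFD+veh and adipokine ligands on almost none. No 2 libraries of a group agreed within sampling noise (85 pairs, lowest chi-square per degree of freedom 11.3). All libraries carry the same batch label. Nothing beyond the labels says how replicates were collected, so p-values measure the spread between these samples.

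Alternatives were DESeq2 1.42.0, limma voom (limma 3.58.1), limma on log2(FPKM + 1) and log2(FPKM + 0.1), other filters and size factors, only the groups compared, a block for replicate number, marker scores as covariates, and each library left out in turn, which was added after seeing the data. The fits were tested on simulated data of 13847 genes, of which 200 changed by 1 on the log2 scale in HFD+veh against ND+veh. Of these 200, edgeR recovered 119, edgeR with the replicate block 105, DESeq2 128 and limma voom 116. False calls made up 5.56%, 7.89%, 11.1% and 5.69% of their calls.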

Additional observations from a re-analysis of the deposited data

Results flagged for a closer look

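Of the 30 sets of values (10 receptors in 3 groups) 5 held one animal far from the rest of its group on the log2 CPM scale, by a gap criterion that flags about 1 in 20 sets, here 1.5, by chance. Gcgr was 5.74 (53.3 CPM) in HFD+veh replicate 6, where the next animal had 133 CPM. Adra1b was 3.59 (11.9 CPM) in the same library, where the next had 39.6 CPM. Adipor2 was 8.49 (360 CPM) in ND+veh replicate 4, where the next had 616 CPM. That library also had the largest TMM factor, 1.30. Lifr was 6.83 (113 CPM) in HFD+veh replicate 2, where the next had 74.8 CPM. Egfr was 7.47 (177 CPM) in HFD+eRapa replicate 1, where the next had 410 CPM. HFD+veh replicate 6 held the highest macrophage sum of all libraries, 5857 CPM, and its part in the 2 low values was not tested.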

How the results depend on the processing

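Pathway genes called in HFD+veh against ND+veh numbered 64. The separate counts were 40 with only the compared groups in the fit, 23 with the immune marker score as covariate, 40 with the endothelial, stellate cell and cholangiocyte score, 42 on log2(FPKM + 1), 37 on log2(FPKM + 0.1) and 19 on log2(FPKM + 1) of every gene above 0. Leaving out one library gave 34 (without HFD+veh replicate 6) to 79. For HFD+eRapa against HFD+veh (88) the immune score gave 20, the other score 18 and log2(FPKM + 1) of every gene 48, with 69 to 100 without one library. For HFD+eRapa against ND+veh (26) these 3 gave 46, 48 and 15, with 21 to 33 without one library. Receptors called numbered 2 instead of 4 with the immune score in HFD+veh against ND+veh, and 2 and 1 instead of 5 with the immune and the other score in HFD+eRapa against HFD+veh. Against ND+veh, HFD+eRapa had 4 instead of 2 with only the compared groups and with the immune score. Without one library the receptors called ranged from 3 to 4, 4 to 6 and 2 to 3. The cause of these changes was not tested. No called receptor changed sign in any alternative, and Avpr1a kept its calls in all of them, with log2 fold changes of -3.34 against ND+veh and 2.02 for HFD+eRapa against HFD+veh on log2(FPKM + 1). Over 720 receptor estimates without one library, 20 calls were lost and 6 gained, and over 360 others 18 were lost and 11 gained. Over all genes, calls in HFD+veh against ND+veh numbered 3584 (2218 higher), 2106 (988 higher) without HFD+veh replicate 6 and 2626 (1292 higher) by limma voom. On log2(FPKM + 1), 873 were higher and 2523 lower in HFD+eRapa against HFD+veh (1507 and 2925 on counts), and 519 and 925 against ND+veh (959 and 906 on counts). On log2(FPKM + 0.1) the median of all genes was -0.10 and -0.12 in these 2 comparisons. The low counts of Adra1a and Lepr, and of Avpr1a in HFD+veh, limit their precision.

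With replicate number as a block, pathway genes called were 47, 61 and 22, and receptors called 4, 5 and 2, where Gcgr lost and Adra1a gained a call in HFD+eRapa against HFD+veh. Deviations of same-numbered animals correlated at -0.360 to 0.726, -0.659 to 0.495 and -0.518 to 0.367 in the 3 comparisons. The mean r was 0.316, -0.245 and -0.203. Whether same-numbered animals shared more than a number was not tested. An animal correlated best with its own number in 2 of 7, 0 of 7 and 0 of 8 pairs.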
